A study of Mus musculus with 8 samples.

Results

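The genes of voltage-gated sodium channels, voltage-gated calcium channels and pacemaker channels were examined in the left ventricle of mice infused with angiotensin II (ANG II, a peptide hormone that raises blood pressure) or with saline. Members were chosen by gene symbol: the numbered Scn genes with a letter, all Cacna, Cacnb and Cacng genes, and the Hcn genes. The rule found 44 of the 55679 genes in the table, of which 41 are described. The mice were wild-type males of the C57BL/6J strain. Both groups carried an osmotic pump under the skin for 7 days, which delivered saline in 4 control libraries and ANG II at 1500 ng/kg/min in 4 ANG II libraries. Hearts were flushed with saline before the left ventricles were removed. The age of the mice was not given in the sources used here, and no label ties a library to a numbered mouse, so p-values measure the spread between these libraries. The label for RNA extraction names CRC cells, whereas the tissue label is left ventricle. The 10 cardiomyocyte markers, which include Myh6 and Tnnt2, were present in every library and summed to 55305 to 56605 FPKM among controls and 42972 to 45231 FPKM under ANG II, with 2 of the 10 called lower. Gene positions are those of GENCODE M21 on GRCm38. The values are FPKM, that is, fragments adjusted for the length of the transcript and for how many fragments the library held.

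Voltage-gated sodium channels open when the membrane is depolarized and carry the fast inward current that starts the action potential of a heart cell. Voltage-gated calcium channels open next: the L-type channels let in the calcium that triggers contraction, and the T-type channels open at more negative voltages and matter most in pacemaking cells. Each has a pore-forming alpha subunit, encoded by an Scn gene or a Cacna1 gene. Helper subunits can set its gating and its amount at the surface: beta subunits for sodium channels, and beta, alpha2delta and gamma subunits for calcium channels such as the L-type. The Hcn genes encode channels that open on hyperpolarization and are known for the pacemaker current of the sinoatrial node.

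Upstream sequences of the genes that changed are shown first, 1 window for each gene whose level the results turn on. Of the 41 members described, 32 had at least 1 start site in the RefSeq table (GRCm38.p6), with 43 start sites in all, and the 4 genes called changed were among them. The 250 bases before the start site are given 5′ to 3′ on the strand of the gene, and capitals mark the GC box letters GGGCGG or, on the other strand, CCGCCC. Cacnb3 has 2 start sites in that table, and the window shown belongs to the one that lies in a GENCODE M21 transcript, inside the span of the gene. The start site of Cacng7 lies upstream of the gene in GENCODE M21 and was not found in its transcripts.
Cacnb3 (chr15:98634517-98634766, plus strand): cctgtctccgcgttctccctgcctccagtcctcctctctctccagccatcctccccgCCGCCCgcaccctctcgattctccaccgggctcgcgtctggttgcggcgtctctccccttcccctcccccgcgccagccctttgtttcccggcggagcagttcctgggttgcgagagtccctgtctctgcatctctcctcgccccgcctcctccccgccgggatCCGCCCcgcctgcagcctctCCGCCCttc
Scn7a (chr2:66784911-66785160, minus strand): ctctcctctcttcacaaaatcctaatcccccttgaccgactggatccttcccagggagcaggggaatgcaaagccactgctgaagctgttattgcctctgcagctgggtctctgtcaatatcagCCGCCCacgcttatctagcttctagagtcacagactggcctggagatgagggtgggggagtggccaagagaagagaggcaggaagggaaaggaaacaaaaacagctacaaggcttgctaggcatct
Cacng7 (chr7:3332575-3332824, plus strand): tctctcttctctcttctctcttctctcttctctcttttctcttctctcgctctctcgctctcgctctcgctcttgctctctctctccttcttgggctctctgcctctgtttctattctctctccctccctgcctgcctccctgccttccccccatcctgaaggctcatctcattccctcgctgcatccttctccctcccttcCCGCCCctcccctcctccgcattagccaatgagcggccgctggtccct
Hcn2 (chr10:79716384-79716633, plus strand): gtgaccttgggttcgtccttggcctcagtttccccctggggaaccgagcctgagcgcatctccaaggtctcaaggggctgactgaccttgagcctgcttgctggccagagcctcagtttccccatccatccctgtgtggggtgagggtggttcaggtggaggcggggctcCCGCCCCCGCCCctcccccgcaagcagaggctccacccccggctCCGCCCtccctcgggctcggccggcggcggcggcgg

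The windows of Cacnb3 and Hcn2 each held 3 copies of the GC box and 23 and 16 CpG dinucleotides, at a GC content of 70.4% in both. The windows of Scn7a and Cacng7 each held 1 copy, with 3 and 9 CpG dinucleotides. The GC box was present before 17 of the 43 start sites of members (39.5%), compared with 32.7% of the 32851 start sites in the table. A TATA box (TATAAA or TTTATA) was present before 2 of the 43 (4.65%, against 12.4% of all), and a CCAAT box (CCAAT or ATTGG) before 10 (23.3%, against 33.9%). Matches of the GC box and of the CCAAT box can share bases at their ends. These matches are a description of the letters in the windows and were not tied to the levels below.

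The libraries held 14456141 to 16564424 fragments, which were recovered from the steps of the FPKM values. Correlations of log2(FPKM + 1) across genes were 0.988 to 0.990 within a group and 0.970 to 0.977 between groups; genes are not independent replicates. Mitochondrially encoded genes took 28.9% to 30.2% of the FPKM in control and 22.1% to 24.6% in ANG II, and the median log2 fold change of all 19364 genes tested was 0.15 in the values as deposited. The changes of called members are therefore also given relative to this median. The summed markers of fibroblasts (431 to 612 FPKM among controls and 1991 to 2253 FPKM under ANG II), macrophages (262 to 333 FPKM among controls and 589 to 821 FPKM under ANG II) and erythroid cells (96.8 to 487 FPKM among controls and 581 to 2083 FPKM under ANG II) were higher in every ANG II library, with 8 of 8, 8 of 8 and 5 of 5 genes called higher, and their part in the channel results was not tested. The ranges of endothelial (367 to 422 FPKM among controls and 415 to 496 FPKM under ANG II) and mesothelial markers (6.14 to 7.69 FPKM among controls and 5.83 to 9.26 FPKM under ANG II) overlapped between the groups, with 1 of 6 and 0 of 5 called higher and 0 lower. In bulk tissue, fewer cells of a type and less RNA per cell cannot be told apart.

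Of the 41 members described, 26 had a mean of at least 0.1 FPKM and were tested, 20 of them had a mean of at least 0.5 FPKM, and 15 were below the limit of testing. A call required a Benjamini-Hochberg adjusted p in limma under 0.05 together with a log2 fold change above 0.5 in size. By that rule 4 of the 26 members were called, which is 15.4%, compared with 15.4% of all genes tested. Cacnb3, Scn7a and Cacng7 rose, which is 11.5% of the members tested against 14.0% of all genes. Hcn2 fell, which is 3.85% against 1.41%. Among members with a mean of at least 0.5 FPKM, 4 of 20 were called, compared with 19.7% of all genes at that level. At an adjusted p under 0.05 without a limit on the fold change there were 10 members (38.5%) against 33.3% of all genes. Of these, 5 were higher (19.2% of the members tested against 28.4% of all genes) and 5 lower (19.2% against 4.91%). The values of the groups did not overlap for 8 members (30.8%) against 33.7% of all genes. The median log2 fold change of the 26 members was 0.0021, compared with 0.15 for all genes tested. For 4 against 4 libraries an exact two-sided permutation test of a single gene cannot go below p = 0.0286, which 6 of the 20 members with a mean of at least 0.5 FPKM reached. In the values as deposited, the shares called in either direction and called higher lie near the background, so those counts are not a result about channel genes as a group. Because 1 member decides the share called lower, no more is read from it. The share lower at an adjusted p under 0.05 and the median log2 fold change lay further from the background, and these differences were not tested.

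How the libraries were scaled changed the split of the calls into higher and lower, while no called member changed direction. The split was 3 higher and 1 lower in the values as deposited, and 1 higher and 4 lower after scaling by the median of ratios, which brought the median log2 fold change of all genes to 0.0040. Lower calls then took 15.4% of the 26 members tested against 4.15% of all genes, and higher calls 3.85% against 8.62%. By quantiles there were again 1 higher (3.85% against 7.31% of all genes) and 4 lower (15.4% against 5.08%). Without mitochondrial and top 10 genes, 1 of 27 members was higher (3.70% against 10.5%) and 3 were lower (11.1% against 2.94%). The share of members called lower thus lay above that of all genes under each of these scalings, on 3 or 4 members, and this difference in shares was not tested. Cacnb3 and Hcn2 were called in the same direction under each of the 3 other scalings, Scn7a and Cacng7 in none of them. Cacna1s and Scn10a were called lower in each of the 3, and Cacnb2 in 2.

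**Figure D1:**
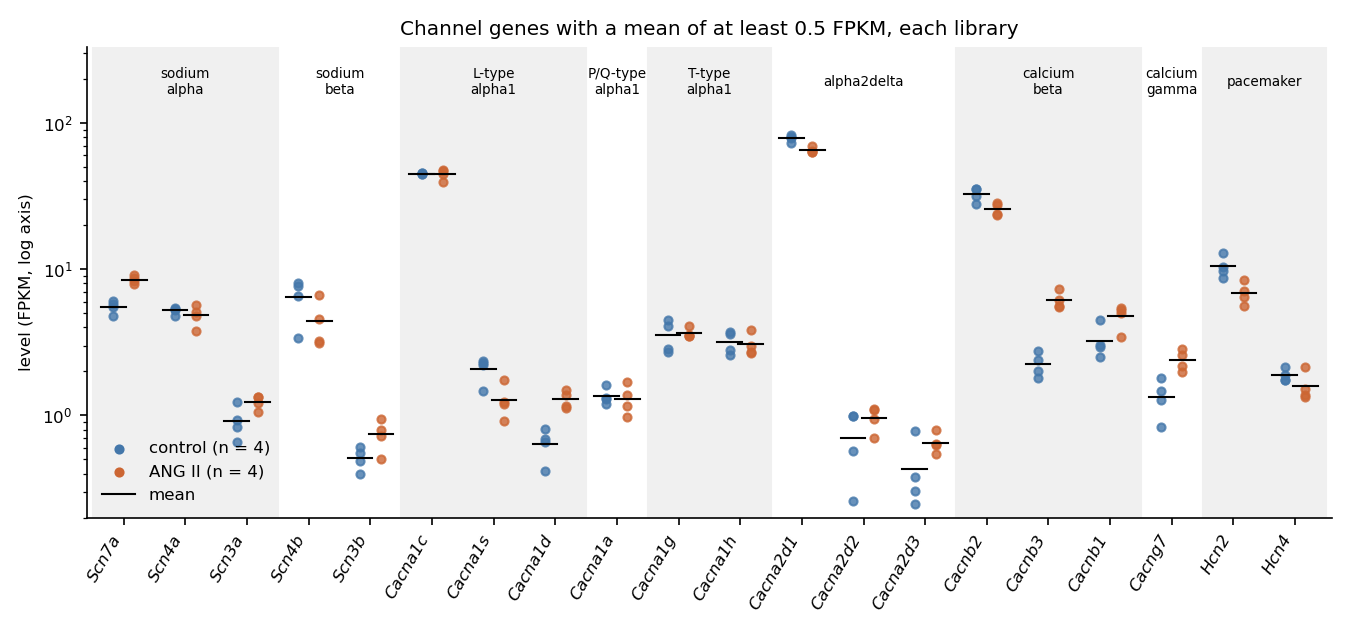
Level of 20 members with a mean of at least 0.5 FPKM in each library, on a log axis in FPKM, grouped by subunit class; points are libraries (blue control, orange ANG II, 4 each) and black bars are means. The points of Cacnb3, Scn7a, Cacng7, Cacna1d, Hcn2 and Cacna2d1 do not overlap between the groups.

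The sodium channel alpha subunits form the pore. Scn7a (ENSMUSG00000034810, chr2:66673425-66784914, minus strand) encodes Nax, an atypical sodium channel that senses extracellular sodium and does not open with voltage as the others do, known from glia and Schwann cells. Its levels were 6.06, 5.47, 4.76 and 5.76 FPKM in control replicates 1 to 4, and 9.05, 7.90, 8.67 and 8.23 FPKM in ANG II replicates 1 to 4. Every ANG II library was above every control library, with a lowest ANG II value of 7.90 FPKM and a highest control value of 6.06 FPKM. Scn7a rose from 5.51 ± 0.555 to 8.46 ± 0.505 FPKM (SD, n = 4 each; log2 fold change 0.54, SE 0.0876, limma with Benjamini-Hochberg adjustment, adjusted p = 0.00121), which is 0.39 above the median of all genes. The values rest on 579 to 646 fragments per control library and 924 to 1007 per ANG II library. The call was lost under the fold change limit after scaling by the median of ratios (0.34), by quantiles (0.25) and without mitochondrial and top 10 genes (0.43), and without control replicate 3 (0.48). Schwann cell and glia markers summed to 6.60 to 12.6 FPKM among controls and 11.4 to 14.0 FPKM under ANG II, with 1 of 8 called higher, and their part in the values of Scn7a was not tested.

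Scn4a, the Nav1.4 gene of skeletal muscle, was at 5.29, 5.37, 4.80 and 5.44 FPKM in control replicates 1 to 4, and 3.80, 4.81, 5.13 and 5.65 FPKM in ANG II replicates 1 to 4. Its mean was 5.22 ± 0.289 FPKM among controls and 4.85 ± 0.779 FPKM under ANG II (SD over 4 libraries each), and the groups overlapped (log2 fold change -0.099, SE 0.110, limma adjusted p = 0.532). By quantiles the log2 fold change was -0.41 (limma adjusted p = 0.0233), within the fold change limit. Skeletal muscle markers summed to 4.23 to 4.68 FPKM among controls and 5.66 to 8.43 FPKM under ANG II, with Myh4 at 0 in every library and 1 of the 4 tested called higher. Tnnt3 had the largest part in this, with means of 0.728 FPKM among controls and 3.29 FPKM under ANG II. The means of Mylpf (2.10 and 2.21 FPKM), Tnni2 (1.16 and 1.45 FPKM) and Pvalb (0.341 and 0.185 FPKM) differed less. Scn3a, which encodes Nav1.3, a channel of the developing nervous system, had a mean of 0.914 ± 0.240 FPKM among controls and 1.24 ± 0.133 FPKM under ANG II (SD over 4 libraries each) and a log2 fold change of 0.23 (95% interval -0.030 to 0.49, limma adjusted p = 0.161). Of the 50-base words of Scn3a, 6.49% are shared with other genes, most with Scn9a, which had at most 2 fragments in a library against 53 to 117 for Scn3a. Scn10a, the Nav1.8 gene of sensory neurons, ranged over 0.369 to 0.671 FPKM among controls and 0.0566 to 0.254 FPKM under ANG II. Scn2a, a brain channel, ranged over 0.0410 to 0.166 FPKM among controls and 0.257 to 0.581 FPKM under ANG II, on 2 to 32 fragments. The groups of Scn10a and Scn2a did not overlap, with Scn10a lower and Scn2a higher in ANG II. Neuron markers summed to 6.04 to 8.0 FPKM among controls and 9.61 to 13.0 FPKM under ANG II, with Chat at 0 in every library and 2 of the 4 tested called higher and 1 lower. Scn8a, Scn9a, Scn11a and Scn1a did not exceed 0.0985 FPKM in any library.

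The sodium channel beta subunits are single-pass proteins that tune gating and take part in cell adhesion. Scn4b encodes the beta4 subunit, which promotes the resurgent current. Its levels were 8.03, 3.40, 7.72 and 6.57 FPKM in control replicates 1 to 4, and 3.23, 3.12, 6.65 and 4.57 FPKM in ANG II replicates 1 to 4. Control replicate 2 stood with the low ANG II libraries and ANG II replicate 3 with the high control libraries. The means of 6.43 ± 2.12 FPKM among controls and 4.39 ± 1.64 FPKM under ANG II (SD over 4 libraries each) gave a difference that did not pass the test (log2 fold change -0.45, SE 0.260, 95% interval -1.04 to 0.13, limma adjusted p = 0.214). Without control replicate 2 Scn4b was called lower (-0.69, limma adjusted p = 0.0354). Scn3b, the beta3 gene, was at 0.512 ± 0.0929 FPKM among controls and 0.743 ± 0.187 FPKM under ANG II (SD over 4 libraries each), with overlapping groups and a limma adjusted p of 0.189. Scn2b ranged over 0.0318 to 0.212 FPKM among controls and 0.123 to 0.218 FPKM under ANG II.

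The L-type alpha1 subunits carry the calcium current of heart muscle. Cacna1c (ENSMUSG00000051331, chr6:118587240-119196418, minus strand), which encodes Cav1.2, was at 44.4, 45.6, 45.6 and 44.6 FPKM in control replicates 1 to 4, and 44.4, 46.9, 39.3 and 47.8 FPKM in ANG II replicates 1 to 4. The ANG II libraries lay on both sides of the control libraries. The mean was 45 ± 0.613 FPKM among controls and 44.6 ± 3.81 FPKM under ANG II (SD over 4 libraries each), and the difference did not pass the test (log2 fold change -0.017, SE 0.0635, 95% interval -0.16 to 0.13, limma adjusted p = 0.868). Against the median of all genes its change was -0.16. It was lower at an adjusted p under 0.05 in limma, within the fold change limit, by the median of ratios (-0.24, adjusted p = 0.0189) and by quantiles (-0.19, adjusted p = 0.0492). Cacna1c held 94.3 ± 0.694% in control and 94.4 ± 0.835% in ANG II of the L-type sum (SD, n = 4 each).

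Cacna1d (ENSMUSG00000015968, chr14:30039939-30491455, minus strand) encodes Cav1.3, the L-type channel of the sinoatrial node and the atria. It was at 0.661, 0.802, 0.418 and 0.687 FPKM in control replicates 1 to 4, and 1.37, 1.15, 1.5 and 1.12 FPKM in ANG II replicates 1 to 4. The groups did not overlap, and the mean level in ANG II was 2.00 times that of control. The means were 0.642 ± 0.161 FPKM among controls and 1.29 ± 0.181 FPKM under ANG II (SD over 4 libraries each). Cacna1d had a limma adjusted p of 0.00876 but stayed under the fold change limit on the log2(FPKM + 1) scale (log2 fold change 0.48, SE 0.112), which understates changes at such low levels. It was called higher with a pseudocount of 0.1 (0.92) and by voom on the recovered fragments (1.04), on 34 to 58 fragments per control library and 89 to 113 per ANG II library, and also without control replicate 2 (0.53), ANG II replicate 2 (0.51) or ANG II replicate 4 (0.51). The log2 fold change was smaller by the median of ratios (0.37, limma adjusted p = 0.0330) and by quantiles (0.28, limma adjusted p = 0.0871). Without mitochondrial and top 10 genes it was 0.49 (limma adjusted p = 0.0279), also under the limit. Atrial cardiomyocyte markers summed to 25.9 to 83.4 FPKM among controls and 224 to 376 FPKM under ANG II, with 3 of 7 called higher. Nppa, which encodes atrial natriuretic peptide, had the largest part in this, with means of 8.61 FPKM among controls and 141 FPKM under ANG II, while the mean of Stard10 was lower in ANG II (17.1 and 13.8 FPKM). The study also names this peptide among genes that cardiomyocytes activate in response to angiotensin II. Myl4, Myl7 and Sln were lowest in control replicate 3 (0.950, 0.205 and 0 FPKM) and highest in ANG II replicate 3 (128, 89.6 and 13.4 FPKM). Cacna1d had its lowest and highest values in these same libraries, whereas Nppa, Dkk3, Fgf12 and Stard10 did not have both there. The part of these markers in the values of Cacna1d was not tested. Markers of the conduction system, a list that itself holds Cacna1d and Hcn4, summed to 12.6 to 15.7 FPKM among controls and 15.8 to 19.8 FPKM under ANG II, with 1 of the 6 tested called higher.

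Cacna1s, the L-type gene of skeletal muscle, was at 2.22, 1.47, 2.30 and 2.36 FPKM in control replicates 1 to 4, and 0.915, 1.2, 1.23 and 1.74 FPKM in ANG II replicates 1 to 4. Control replicate 2 and ANG II replicate 4 were the libraries that made the groups overlap. The means were 2.09 ± 0.413 FPKM among controls and 1.27 ± 0.341 FPKM under ANG II (SD over 4 libraries each), with a log2 fold change of -0.44 below the fold change limit (SE 0.146, limma adjusted p = 0.0405). Cacna1s was called lower after scaling by the median of ratios (-0.58), by quantiles (-0.71), without mitochondrial and top 10 genes (-0.61) and by voom (-0.73). It was also called lower with a pseudocount of 0.1 (-0.68), without control replicate 2 (-0.55) and without ANG II replicate 4 (-0.54). The limma adjusted p was above 0.05 without the filter on low values (0.0888), and it was 0.0755 to 0.109 when control replicate 1, 3 or 4 or ANG II replicate 1, 2 or 3 was left out. Exons of Gm37759 on the opposite strand cover 20.0% of its exon bases, and without stated use of strand the reads of both cannot be told apart. Cacna1f, the retinal L-type gene, did not exceed 0.0829 FPKM.

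Among the P/Q-, N- and R-type subunits, which serve transmitter release in neurons, Cacna1a reached 0.5 FPKM on average. It was at 1.36 ± 0.186 FPKM among controls and 1.3 ± 0.302 FPKM under ANG II (SD over 4 libraries each) with overlapping groups (log2 fold change -0.040, SE 0.122, limma adjusted p = 0.835), and its sign turned when control replicate 1 or ANG II replicate 3 was left out (0.013 and 0.029). Cacna1b and Cacna1e stayed at or below 0.166 FPKM in every library.

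The T-type subunits are low in the normal adult ventricle. Cacna1g (Cav3.1) was at 2.71, 4.46, 2.84 and 4.12 FPKM in control replicates 1 to 4, and 3.56, 3.48, 3.48 and 4.08 FPKM in ANG II replicates 1 to 4. The control libraries were more widely spread than the ANG II libraries, and the difference between the means of 3.53 ± 0.888 FPKM among controls and 3.65 ± 0.288 FPKM under ANG II (SD over 4 libraries each) did not pass the test (log2 fold change 0.056, SE 0.141, 95% interval -0.26 to 0.37, limma adjusted p = 0.795). The sign of this value turned under the 3 other scalings (-0.12, -0.26 and -0.062). Cacna1h (Cav3.2) was at 3.59, 3.69, 2.81 and 2.60 FPKM in control replicates 1 to 4, and 2.73, 2.65, 3.86 and 2.99 FPKM in ANG II replicates 1 to 4. Its groups overlapped as well, with means of 3.17 ± 0.550 FPKM among controls and 3.06 ± 0.554 FPKM under ANG II (SD over 4 libraries each) and a difference that did not pass the test (log2 fold change -0.040, SE 0.133, 95% interval -0.34 to 0.26, limma adjusted p = 0.849), and the sign turned when control replicate 1, control replicate 2 or ANG II replicate 2 was left out. Cacna1g held 52.1 ± 7.68% in control and 54.0 ± 4.67% in ANG II of the T-type sum per mean transcript length. With the longest transcript, a choice made after seeing the data, the mean level was 2.57 for Cacna1g and 1.18 for Cacna1h on the same scale, so that the balance of these genes rests on the length used. Cacna1i stayed at or below 0.122 FPKM.

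The alpha2delta subunits are extracellular proteins that bring the channel to the membrane. Cacna2d1 (ENSMUSG00000040118, chr5:15934691-16374511, plus strand), a binding target of gabapentin, was the member with the highest FPKM, at 72.9, 83.0, 80.1 and 78.4 FPKM in control replicates 1 to 4, and 64.2, 69.9, 62.8 and 63.2 FPKM in ANG II replicates 1 to 4. Every ANG II library was below every control library. The mean was 78.6 ± 4.27 FPKM among controls and 65.0 ± 3.29 FPKM under ANG II (SD over 4 libraries each), a difference with a limma adjusted p of 0.00481 that lay under the fold change limit (log2 fold change -0.27, SE 0.0561, 95% interval -0.40 to -0.14). Relative to the median of all genes it was -0.42, and it was below 0 under every scaling. Cacna2d1 held 98.6 ± 0.432% in control and 97.6 ± 0.418% in ANG II of its class. Cacna2d2 was at 0.703 ± 0.357 FPKM among controls and 0.961 ± 0.191 FPKM under ANG II (SD over 4 libraries each), with a limma adjusted p of 0.326. Cacna2d3 was at 0.429 ± 0.244 FPKM among controls and 0.650 ± 0.103 FPKM under ANG II (SD over 4 libraries each), with a limma adjusted p of 0.217, which was 0.0402 without control replicate 1 (log2 fold change 0.33). The groups of both overlapped. Cacna2d4 had at most 1 fragment in a library.

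The calcium channel beta subunits bind inside the cell to the alpha1 subunit and set its trafficking and gating. Cacnb2, the main beta gene of heart muscle, was at 31.9, 35.3, 35.3 and 28.0 FPKM in control replicates 1 to 4, and 23.7, 28.1, 27.4 and 23.5 FPKM in ANG II replicates 1 to 4. The highest ANG II library was just above the lowest control library. Cacnb2 had a mean of 32.6 ± 3.47 FPKM among controls and 25.7 ± 2.41 FPKM under ANG II (SD over 4 libraries each), with a limma adjusted p of 0.0177 and a log2 fold change of -0.33 (SE 0.0901) within the fold change limit. Cacnb2 was called lower after scaling by the median of ratios (-0.55) and by quantiles (-0.53), whereas the limma adjusted p was above 0.05 without control replicate 3 (0.0529) and without ANG II replicate 1 (0.0531). An opposite-strand gene, Gm10849, covers 7.32% of its exon bases.

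Cacnb3 (ENSMUSG00000003352, chr15:98630840-98644529, plus strand), a beta gene best known from brain and smooth muscle, whose upstream window is printed above, was at 2.74, 2.37, 2.02 and 1.79 FPKM in control replicates 1 to 4, and 6.14, 7.32, 5.63 and 5.48 FPKM in ANG II replicates 1 to 4. The lowest ANG II library was at 5.48 FPKM and the highest control library 2.74 FPKM. Cacnb3 rose from 2.23 ± 0.414 to 6.14 ± 0.835 FPKM (SD, n = 4 each), a 2.76-fold ratio of the means and the largest log2 fold change among the 20 members in these values (log2 fold change 1.15, SE 0.124, limma with Benjamini-Hochberg adjustment, adjusted p = 1.34e-04). It was 1.00 above the median of all genes, rested on 45 to 65 fragments per control library and 140 to 192 per ANG II library, and was called under all 19 alternatives. Smooth muscle and pericyte markers summed to 536 to 616 FPKM among controls and 576 to 641 FPKM under ANG II, with 2 of 8 called higher and 1 lower, and overlapping ranges.

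Cacnb1 was at 2.49, 4.47, 2.94 and 3.04 FPKM in control replicates 1 to 4, and 5.26, 5.03, 3.44 and 5.44 FPKM in ANG II replicates 1 to 4. Control replicate 2 was high and ANG II replicate 3 low for their groups. The means were 3.24 ± 0.859 FPKM among controls and 4.79 ± 0.917 FPKM under ANG II (SD over 4 libraries each), and the difference did not pass the test (log2 fold change 0.46, SE 0.165, limma adjusted p = 0.0587). It was called higher without control replicate 2 (0.59), without ANG II replicate 3 (0.58) and by voom (0.58), whereas the log2 fold change was smaller by the median of ratios (0.27, limma adjusted p = 0.251) and by quantiles (0.14, limma adjusted p = 0.584). Cacnb4 ranged over 0.244 to 0.554 FPKM among controls and 0.265 to 0.499 FPKM under ANG II. The sum of the 4 beta genes was 38.5 ± 4.11 FPKM among controls and 37.0 ± 2.66 FPKM under ANG II (SD, n = 4 each), and the shares within it were as follows. Cacnb2 held 84.9 ± 1.87% in control and 69.4 ± 3.28% in ANG II, Cacnb3 held 5.81 ± 1.03% in control and 16.6 ± 1.27% in ANG II, and Cacnb1 held 8.39 ± 1.76% in control and 13.0 ± 2.85% in ANG II. The share of Cacnb2 was 82.6% to 87.2% in control and 66.8% to 74.1% in ANG II, with no overlap.

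**Figure D2:**
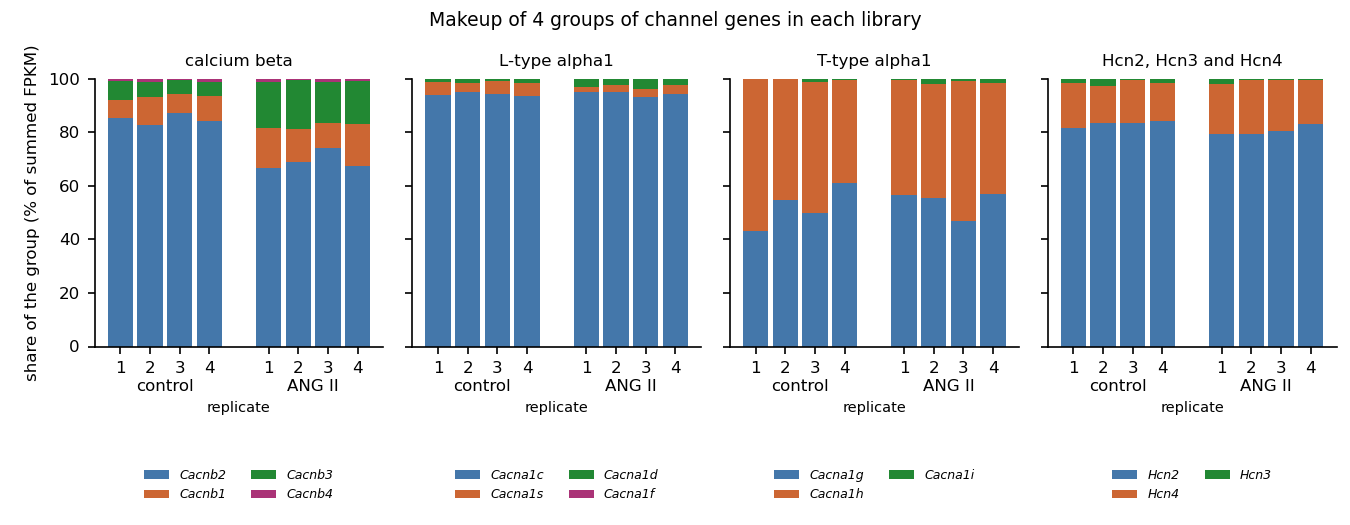
Share of each gene in the summed FPKM of its group, in percent, for calcium beta genes, L-type alpha1 genes, T-type alpha1 genes and Hcn2, Hcn3 and Hcn4, with 1 stacked bar per library. Cacnb3 takes a larger part of the calcium beta bar in all 4 ANG II libraries, and Cacna1c and Hcn2 lead their bars in every library.

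**Figure D3:**
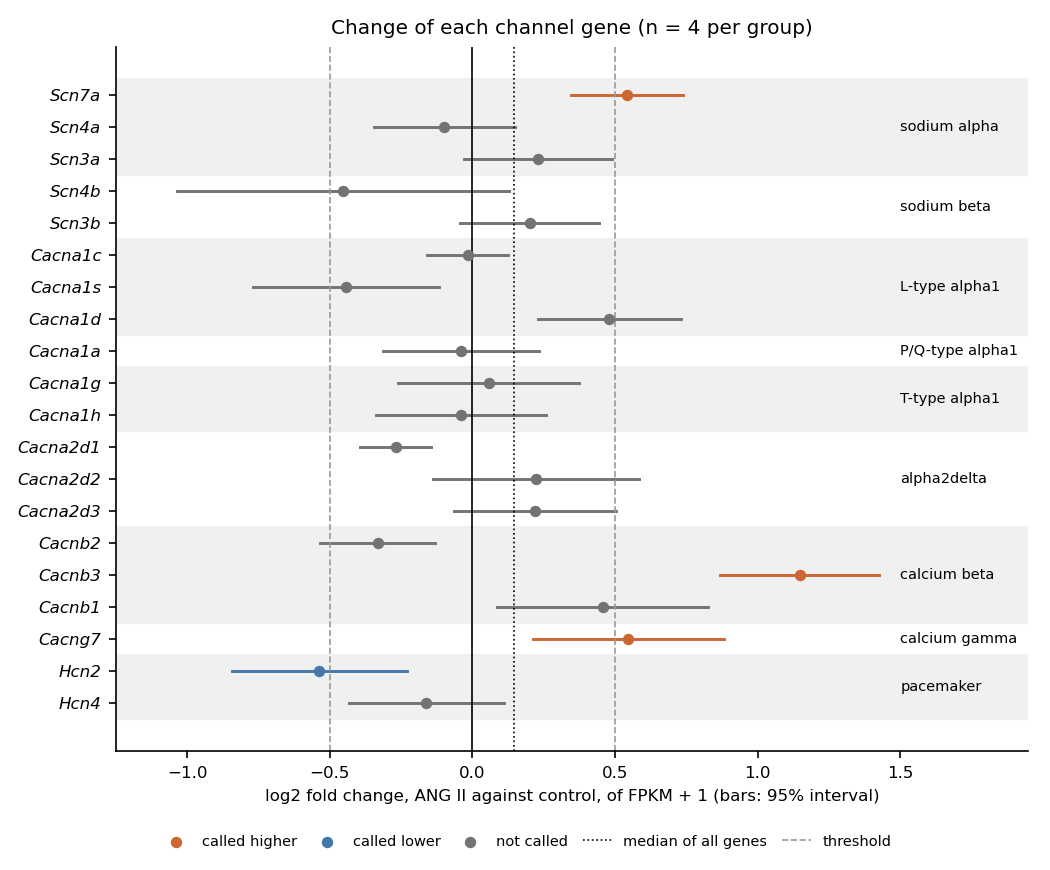
Log2 fold change of FPKM + 1 in ANG II against control for the same 20 members, with 95% intervals from limma (4 libraries per group); orange and blue mark members called higher and lower, dashed lines the fold change limit of 0.5, and the dotted line the median of all genes at 0.15. Cacnb3 lies beyond 1, and the interval of Scn4b is the widest.

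The gamma genes include Cacng1 and Cacng6, subunits of muscle calcium channels, and genes better known for guiding AMPA receptors in neurons. Cacng7, of the second kind, was at 1.46, 1.27, 0.838 and 1.82 FPKM in control replicates 1 to 4, and 2.18, 2.86, 1.97 and 2.61 FPKM in ANG II replicates 1 to 4. The groups did not overlap, with 1.82 FPKM in the highest control library and 1.97 FPKM in the lowest ANG II library. Cacng7 rose from 1.35 ± 0.408 to 2.40 ± 0.404 FPKM (SD, n = 4 each; log2 fold change 0.55, SE 0.150, limma with Benjamini-Hochberg adjustment, adjusted p = 0.0187), which is 0.40 above the median of all genes, on 21 to 42 fragments per control library and 45 to 69 per ANG II library. The call was lost under the 3 other scalings (log2 fold change 0.40 by the median of ratios, 0.26 by quantiles and 0.51 without mitochondrial and top 10 genes), and without control replicate 3 (0.43) or ANG II replicate 2 (0.48). Cacng6 ranged over 0.0424 to 0.340 FPKM among controls and 0 to 0.176 FPKM under ANG II. Cacng1, Cacng4, Cacng5 and Cacng8 had at most 5 fragments in a library. Cacng2 and Cacng3 were at 0 in all 8 libraries, which with a floor of 3 fragments per library allows up to 0.0377 and 0.140 FPKM.

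Of the pacemaker genes, Hcn2 (ENSMUSG00000020331, chr10:79716634-79736108, plus strand) is the main isoform of the ventricle, and Hcn4 that of the sinoatrial node. Hcn2 was at 8.63, 12.9, 9.72 and 10.4 FPKM in control replicates 1 to 4, and 5.61, 8.42, 6.42 and 7.03 FPKM in ANG II replicates 1 to 4. Control replicate 2 was the highest library, and the highest ANG II library lay just below the lowest control library, at 8.42 against 8.63 FPKM. Hcn2 fell from 10.4 ± 1.83 to 6.87 ± 1.19 FPKM (SD, n = 4 each; log2 fold change -0.54, SE 0.137, limma with Benjamini-Hochberg adjustment, adjusted p = 0.0133), or -0.68 from the median of all genes. The values rest on 392 to 594 fragments per control library and 267 to 422 per ANG II library. The log2 fold change was within the limit of 0.5 without control replicate 2 (-0.44) and without ANG II replicate 1 (-0.46), while it was larger under the 3 other scalings (-0.69 to -0.81).

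Hcn4 was at 1.74, 2.15, 1.88 and 1.75 FPKM in control replicates 1 to 4, and 1.33, 2.13, 1.52 and 1.38 FPKM in ANG II replicates 1 to 4. Of the ANG II libraries, 3 were below all controls and replicate 2 was among them, and the difference between the means of 1.88 ± 0.190 FPKM among controls and 1.59 ± 0.370 FPKM under ANG II (SD over 4 libraries each) did not pass the test (log2 fold change -0.16, SE 0.122, limma adjusted p = 0.348). By quantiles the log2 fold change was -0.44 (limma adjusted p = 0.0250), also within the fold change limit. Hcn3 ranged over 0.0398 to 0.406 FPKM among controls and 0.0412 to 0.130 FPKM under ANG II, on at most 9 fragments. Hcn2 held 83.2 ± 1.00% in control and 80.6 ± 1.77% in ANG II of the sum of Hcn2, Hcn3 and Hcn4, which was 12.5 ± 2.12 FPKM among controls and 8.53 ± 1.5 FPKM under ANG II (SD, n = 4 each).

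**Figure D4:**
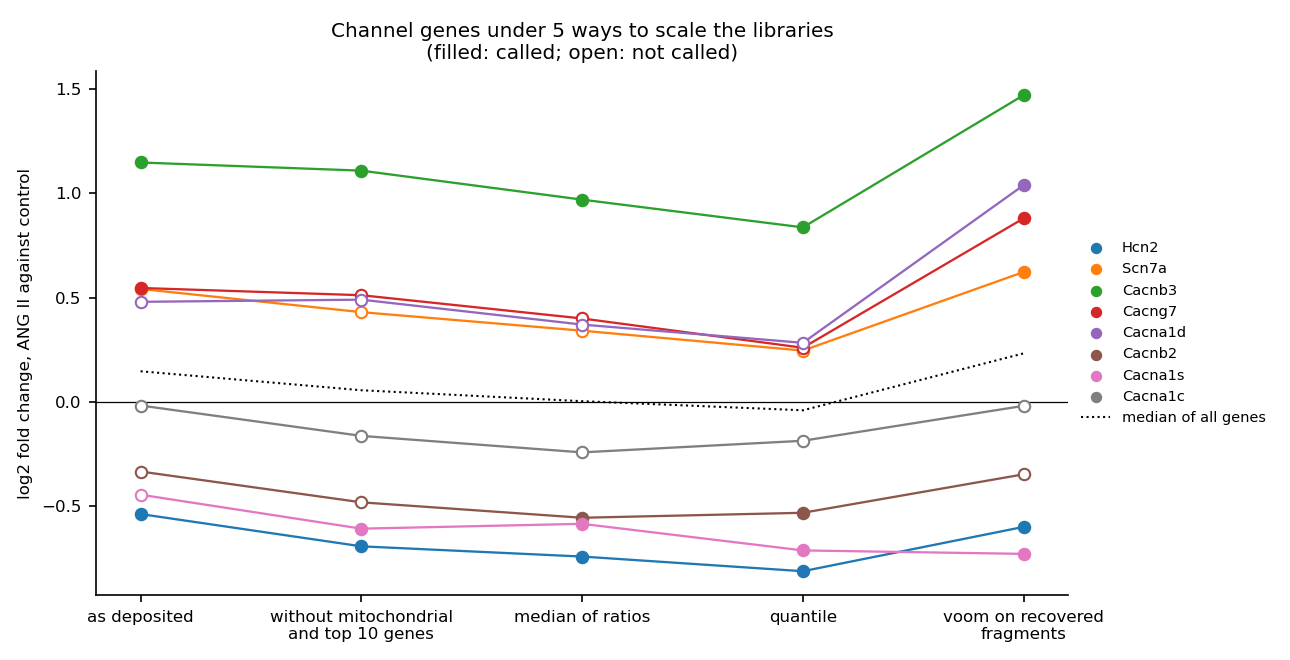
Log2 fold change of 8 members under 5 ways to scale the libraries, from the values as deposited to voom on recovered fragments (which adds no 1 to the FPKM); filled points are called and open points are not, and the dotted line is the median of all genes. Cacnb3 and Hcn2 are filled throughout, and Scn7a and Cacng7 only in the values as deposited and with voom.

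By level, the order in control among the 20 members began with Cacna2d1 (78.6 FPKM), Cacna1c (45), Cacnb2 (32.6) and Hcn2 (10.4), each apart from the next in every control library. Of the 19 neighbouring pairs in the order of each group, the libraries of 6 did not overlap in control and those of 3 did not in ANG II. In ANG II Scn7a (8.46 FPKM) came before Hcn2 (6.87 FPKM), and the libraries of these genes overlapped. The order between genes rests on the length that FPKM divides by, which matched the mean length of the annotated transcripts. Cacna2d1 has 12 transcripts with a mean of 3369 bases and a longest of 7436. With the longest transcript, a choice made after seeing the data, the mean over all libraries was 32.5 for Cacna2d1, 22.6 for Cacna1c and 11.8 for Cacnb2 on the same scale.

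The proteins that bind these channels, and factors known to act on their genes, were described from a list of 46 genes, of which 43 were tested. In limma 7 were called higher (16.3%) and 0 lower (against 1.41% of all genes), and 19 had an adjusted p under 0.05 (44.2% against 33.3% of all genes). Of these 19, 14 were higher (32.6% of those tested against 28.4% of all genes) and 5 lower (11.6% against 4.91%). At an unadjusted p under 0.05 in limma there were 21 of the 43, 16 higher and 5 lower, against 8323 of all 19364 genes. Voom on the recovered fragments called 8 higher (18.6% against 18.9% of all genes) and 0 lower (against 2.03%). The share called higher lies near the 14.0% of all genes, and their median log2 fold change of 0.18 lies near the 0.15 of all genes. After scaling by the median of ratios, 3 were called higher (6.98% against 8.62% of all genes) and 0 lower.

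Of 12 sodium channel partners, all tested, 1 was called higher, against 14.0% of all genes. This was Fgf14 (0.518 to 1.31 FPKM, log2 fold change 0.60), a factor that binds the tail of the alpha subunit. The partners with the highest levels did not pass the test in the values as deposited: Slmap was at 144 ± 13.0 FPKM among controls and 153 ± 6.40 FPKM under ANG II (SD over 4 libraries each), Pkp2 at 68.8 ± 5.06 FPKM among controls and 74.0 ± 7.72 FPKM under ANG II (SD over 4 libraries each) and Gpd1l at 43.7 ± 0.909 FPKM among controls and 39.3 ± 4.07 FPKM under ANG II (SD over 4 libraries each). Of 19 calcium channel partners, 18 were tested and 2 called higher, against 14.0% of all genes. These were Bin1 (4.93 to 8.53 FPKM, log2 fold change 0.70), which shapes the T-tubule membrane where L-type channels sit, and Calm2 (119 to 181 FPKM, log2 fold change 0.60), a calmodulin gene. The calls of Fgf14, Bin1 and Calm2 were lost by the median of ratios and by quantiles, with log2 fold changes of 0.37 to 0.50, and that of Calm2 also without mitochondrial and top 10 genes (0.46). Other genes share 9.72% of the 50-base words of Calm2. Ryr2, the calcium release channel, was at 395 ± 45.7 FPKM among controls and 411 ± 59.8 FPKM under ANG II (SD over 4 libraries each) with a limma adjusted p of 0.751. Calm3 (151 to 198 FPKM) and Jph2 (142 to 119 FPKM), which holds the T-tubule close to the calcium store, had adjusted p of 0.00218 and 0.0116 in limma, under the fold change limit.

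Of 5 Hcn channel partners, 4 were tested and 1 called higher, against 14.0% of all genes. This was Lrmp (2.17 to 4.86 FPKM, log2 fold change 0.90), whose protein binds Hcn4. Its libraries ranged over 1.54 to 3.00 FPKM among controls and 4.09 to 5.57 FPKM under ANG II, without overlap. Kctd3 (12.3 to 15.2 FPKM) had a limma adjusted p of 0.0303 under the fold change limit, and Mrvi1 (5.37 to 6.40 FPKM) and Pex5l (0.158 to 0.305 FPKM) did not pass, with adjusted p of 0.147 and 0.189 in limma. Of 10 factors known to act on channel genes, 9 were tested and 3 called higher, against 14.0% of all genes. Each partner list is too short for its share to be read further. The 3 were Snai1 (1.27 to 4.06 FPKM, log2 fold change 1.16), a repressor also known from mesenchymal cells, Tbx18 (1.97 to 3.83 FPKM, log2 fold change 0.71) and Shox2 (0.607 to 1.36 FPKM, log2 fold change 0.54), both factors of sinoatrial node development. Shox2 was called under 9 of 18 alternatives: the call was lost under the 3 other scalings, without the filter, at a fold change limit of 1, and without control replicate 1 or 3 or ANG II replicate 1 or 2 (limma adjusted p of 0.0566 to 0.0791). The call of Tbx18 was lost by quantiles (0.40) and at a fold change limit of 1. An opposite-strand gene covers 20.6% of the exon bases of Tbx18. Nkx2-5 was at 40.2 ± 3.54 FPKM among controls and 37.3 ± 4.33 FPKM under ANG II (SD over 4 libraries each), with a limma adjusted p of 0.401. Tbx5 was at 8.78 ± 1.83 FPKM among controls and 8.77 ± 0.898 FPKM under ANG II (SD over 4 libraries each), with a limma adjusted p of 0.953. Mef2c (34.3 to 42.3 FPKM) had a limma adjusted p of 0.00875 under the fold change limit. After scaling by the median of ratios, the limma adjusted p of Calm3, Kctd3 and Mef2c was 0.119, 0.595 and 0.541, and that of Gpd1l and Nkx2-5 was 0.00239 and 0.0213, with log2 fold changes of -0.38 and -0.33. The adjusted p of Kctd3 was also above 0.05 when any library other than control replicate 2 or ANG II replicate 3 was left out (0.0643 to 0.0812).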

How the data were processed

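RNA-seq was carried out on 8 left ventricle libraries, 4 control and 4 ANG II, with groups taken from the sample titles. The study's methods describe more replicates per group, which were not analysed here. The authors deposited 1 table of FPKM values with 55679 genes and 1 column per library, without pooling. Per the labels, HISAT, Bowtie2 and RSEM were used, with no version given, after enrichment of messenger RNA on oligo(dT) beads. The genome build, annotation and use of strand were not given in the sources used here. FPKM divides by transcript length, so levels between genes depend on the annotated transcripts, and it divides by the fragments of the library, so a few abundant genes shift all others. Fragments were recovered as deposited FPKM times the mean length of a gene's transcripts in GENCODE M21, which held 55141 of the IDs. Among values under 60 fragments, 99.1% to 99.3% per library were whole within 0.1 fragment for genes with 1 transcript, and 97.5% to 97.9% for genes with several. Totals were 14456141 to 16564424 fragments. Floors rest on 3 fragments and cover counting error only, as do all ranges of fragments.

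The 19364 genes whose mean reached 0.1 FPKM entered limma 3.58.1 in R 4.3.3 (lmFit, and eBayes with trend) as log2(FPKM + 1), without covariate or replicate block. Two-sided p-values were adjusted by Benjamini-Hochberg over these genes, and calls were made at an adjusted p under 0.05 and an absolute log2 fold change above 0.5, the thresholds the study names. At low levels the added 1 shrinks a fold change. Intervals at 95% use the moderated degrees of freedom of limma. The steps were tested on simulated data. For single members, all 70 allocations of the libraries were enumerated in a two-sided exact permutation test.

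Of the members, 3 are not reported here, nor are some genes of the partner and marker lists, and the counts leave them out. Every other member with a mean of at least 0.5 FPKM is named with values, the others with their range and no fold change. Of these others, Scn10a and Scn2a are also given a direction, and Scn10a its calls under other settings, which account for the counts of calls. Of the partner genes, the called ones and up to 3 further genes per list with the highest mean are named. The members, the lists of partner genes and of cell type markers, and the tests were chosen with earlier results of these data known. Same-numbered libraries did not deviate together (r of -0.03 to 0.06), so no pairing was used. Alternatives changed the pseudocount, the filter, the scaling, the variance trend, the block, the fold change limit, the unit (voom on recovered fragments) and the libraries, 1 at a time. The scalings were the median of ratios, quantiles, and removal of the mitochondrial genome's genes together with the 10 of highest mean. Sequences are from RefSeq (GRCm38.p6). Python 3.11.15 with numpy 2.4.6, pandas 2.3.3 and matplotlib 3.10.9 was used for tables and plots.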

Additional observations from a re-analysis of the deposited data

Results flagged for a closer look

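In 40 groups of 4 libraries, formed by the 20 members with a mean of at least 0.5 FPKM and the 2 treatments, 2 libraries stood further from the rest of their group than Dixon's 95% critical value allows. Chance alone gives about 1 in 20. Cacna1g in ANG II replicate 4 was the highest of its group at 4.08 FPKM, with a gap of 0.864 of the range of the group to the next library. Cacna1s in control replicate 2 was the lowest of its group at 1.47 FPKM, with a gap of 0.838 of the range. Without control replicate 2, Cacna1s was called lower in ANG II (log2 fold change -0.55, limma with Benjamini-Hochberg adjustment, adjusted p = 0.0161). It was also called lower without ANG II replicate 4 (-0.54, limma adjusted p = 0.0215). Leaving out 6 of the 7 libraries other than control replicate 2, 1 at a time, gave an adjusted p of 0.0755 to 0.109.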

How the results depend on the processing

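Of the 20 members with a mean of at least 0.5 FPKM, Cacnb3 was called under all 19 alternatives, Hcn2 under 16, Scn7a under 14 and Cacng7 under 13. Among the 26 members tested, the 3 called higher became 5 with a pseudocount of 0.1, 1 after scaling by the median of ratios, by quantiles and without mitochondrial and top 10 genes, 5 without a fold change limit, 1 at a limit of 1 and 6 with voom. The 1 called lower became 3 with a pseudocount of 0.1, 4 by the median of ratios, 4 by quantiles, 3 without mitochondrial and top 10 genes, 5 without a fold change limit, 0 at a limit of 1 and 3 with voom. As shares of the members tested against all genes, those called higher were 19.2% against 17.7% with the pseudocount of 0.1, 19.2% against 28.4% without a limit, 3.85% against 3.96% at a limit of 1 and 23.1% against 18.9% with voom, and those called lower 11.5% against 2.01%, 19.2% against 4.91%, 0% against 0.145% and 11.5% against 2.03%. Scn10a, which is under 0.5 FPKM on average, was among those called lower under each of the 3 scalings, with the pseudocount of 0.1 and with voom. Leaving out 1 library gave 1 to 5 higher (3.85% to 20% of the members tested, against 12.9% to 14.6% of all genes) and 0 to 2 lower (0% to 8%, against 1.28% to 1.54%). The counts were 5 higher without control replicate 2, and lowest without control replicate 3 (1 higher) and without ANG II replicate 1 (0 lower), and 2 were lower without control replicate 2, control replicate 4, ANG II replicate 3 or ANG II replicate 4. The replicate number as a block (replicate block) gave 3 higher and 1 lower, the same 4 members; 1 of 4 control libraries correlated best with its own number.

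Over all genes, the 2708 called higher became 1670 by the median of ratios, 1416 by quantiles, 5496 without a fold change limit and 767 at a limit of 1. The 273 called lower became 804 by the median of ratios, 983 by quantiles, 607 without mitochondrial and top 10 genes, 951 without a limit and 28 at a limit of 1; the block gave 2700 and 268. Of the partner genes, the 7 called higher became 3 by the median of ratios (6.98% of those tested against 8.62% of all genes) and 2 by quantiles (4.65% against 7.31%). They became 14 without a limit (32.6% against 28.4%) and 1 at a limit of 1 (2.33% against 3.96%). The 0 called lower became 5 without a limit (11.6% against 4.91%).

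Signs turned only in members that did not pass the test: Cacna1g (-0.12 by the median of ratios, -0.26 by quantiles, -0.062 without mitochondrial and top 10 genes) and, with 1 library left out in turn, Cacna1c (-0.051 to 0.041), Cacna1g (-0.033 to 0.15), Cacna1h (-0.13 to 0.019) and Cacna1a (-0.12 to 0.029). The cause was not tested.

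Shares taken from recovered fragments, not divided by length, were 96.2% in control and 96.1% in ANG II for Cacna1c, 67.5% and 69.2% for Cacna1g, 4.70% and 13.8% for Cacnb3, 73.3% and 68.8% for Hcn2, and 98.0% in ANG II for Cacna2d1. With the longest transcript in place of the mean length, an alternative chosen after seeing the data, the level of Cacna2d1 was 1.44 of that of Cacna1c, compared with 1.6 in the deposited values, and that of Cacna1c was 1.91 of that of Cacnb2, compared with 1.54. Members under 0.5 FPKM rest on at most 47 fragments in a library, and at this depth a change in them could not be told from counting error and spread in most cases.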
